A study of Mus musculus with 12 samples.

Results

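The 10 genes described here encode apolipoproteins, the protein components of plasma lipoproteins, and were taken as the rows of the deposited table whose Ensembl identifiers map to the symbols Apoa1, Apoa2, Apoa4, Apoa5, Apob, Apoc1, Apoc2, Apoc3, Apoe and Apoh. All 10 were among the 27022 genes of the table. The counts came from the liver of 6 female SJL/J mice aged 11 weeks, of which 3 ate a control diet that held 50 ppm iron and 3 were switched at 6 weeks to an iron-loaded diet, which held 2% carbonyl iron. Both diets were AIN-93G formulas, and all mice were fasted and their livers perfused before RNA extraction. Each RNA sample gave 1 Trad-KAPA library, which was sequenced along whole transcripts, and 1 3’-LEXO library, in which reads start near the poly(A) tail, so that there were 12 libraries. The mice on one diet shared a cage, and diet and cage cannot be told apart.

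Lipoproteins carry triglycerides and cholesterol in plasma. The liver assembles very low density lipoprotein (VLDL) on ApoB and secretes the scaffold of high density lipoprotein (HDL), ApoA1 and ApoA2, while small exchangeable apolipoproteins move between the particles and set how fast lipases and receptors act on them. ApoA5 and ApoC2 favour lipolysis by lipoprotein lipase, ApoC3 and ApoC1 restrain the clearance of triglyceride-rich particles, and ApoE is a ligand for the receptors that take up remnants.

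Totals ranged from 13834682 to 16553616 counts per Trad-KAPA library and from 10724672 to 14104236 per 3’-LEXO library. The 8 hepatocyte markers were detected in all libraries, at a summed level of 138816 to 151363 CPM (counts scaled to a library total of 1000000) in control and 113249 to 150372 CPM in iron-loaded Trad-KAPA libraries. Of the genes known to respond to liver iron, Bmp6, Id1, Smad7 and Atoh8 were higher in the iron-loaded Trad-KAPA libraries (adjusted p = 0.000505, 0.0295, 0.0139 and 0.00948). In 3’-LEXO, Smad7 and Atoh8 were called (adjusted p = 0.0428 and 0.0361), Id1 was not (adjusted p = 0.0531), and Bmp6 was too low to be tested. Hamp, which encodes hepcidin, had a log2 fold change of 2.36 ± 0.77 (SE) with an adjusted p of 0.0667 in Trad-KAPA, and of 2.53 ± 0.62 with an adjusted p of 0.0425 in 3’-LEXO.

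The promoter of Apoa5 is shown with those of Apoa2 and Apob because Apoa5 had the largest diet difference. These 3 genes hold the letters TATAAA in the 250 bases before a RefSeq start site. RefSeq entries (GRCm38.p6) were found for 8 of the 10 genes, with 12 start sites in all. The TATA box was searched as TATAAA, the nuclear receptor half-site as AGGTCA and an HNF4 motif as CAAAGTCC, each on both strands. Capitals mark the letters TATAAA at any distance from the start, and each sequence is written 5′ to 3′ on the plus strand, on which all 3 genes lie.
Apoa5 (chr9:46268358-46268607): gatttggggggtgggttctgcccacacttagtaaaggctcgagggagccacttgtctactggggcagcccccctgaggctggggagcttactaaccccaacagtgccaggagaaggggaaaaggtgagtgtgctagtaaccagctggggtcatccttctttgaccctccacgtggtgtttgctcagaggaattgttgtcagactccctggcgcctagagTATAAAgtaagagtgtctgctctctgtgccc
Apoa2 (chr1:171224804-171225053): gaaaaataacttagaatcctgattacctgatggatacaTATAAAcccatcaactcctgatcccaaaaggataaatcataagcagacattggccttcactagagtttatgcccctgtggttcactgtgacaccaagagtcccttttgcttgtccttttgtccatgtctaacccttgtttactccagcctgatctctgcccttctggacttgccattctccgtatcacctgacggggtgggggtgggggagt
Apob (chr12:7977427-7977676): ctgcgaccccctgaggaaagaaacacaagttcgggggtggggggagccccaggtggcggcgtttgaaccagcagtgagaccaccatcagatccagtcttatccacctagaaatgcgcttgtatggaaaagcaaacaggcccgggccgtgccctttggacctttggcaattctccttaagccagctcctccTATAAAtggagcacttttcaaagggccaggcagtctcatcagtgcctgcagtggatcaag
The first base of the motif lay 31 bases before the start site that follows the Apoa5 window shown and 56 before a second RefSeq start of Apoa5 at 46268633, which is also the gene's start in the annotation. It lay 60 bases before the RefSeq start of Apob at 7977677, where the annotation starts the gene at 7977648, and 212 before that of Apoa2. TATAAA was present in 12.4% of the 32851 promoter windows of the same length in the RefSeq set, AGGTCA in 14.0% and CAAAGTCC in 1.20%. AGGTCA was found upstream of Apoc2, of a second start site of Apoa2 and of the RefSeq start of Apoh, and CAAAGTCC in no window of these genes. The RefSeq start of Apoh, at 108395297, lies inside the annotated gene, which starts at 108343354. Apoe held TATAAA before another of its start sites only, and the windows of Apoa1 and Apoa4 held none of the 3 motifs. These matches describe letters in a window, and do not show that a factor binds there.

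The diet comparison asked which genes differ in the liver between iron-loaded and control mice. In Trad-KAPA, Apoa5 rose about 1.93-fold and Apoc1 and Apoa2 fell to 0.597 and 0.630 of the control level. In 3’-LEXO, only Apoa5 passed the threshold, at 2.10-fold. The other members, among them the abundant Apoe, Apoa1 and Apoh, did not pass the test in either kit. Of the 10 members tested in Trad-KAPA, 3 were called, 1 higher and 2 lower, against 17.1% of all 13151 genes tested, 8.77% higher and 8.37% lower. In 3’-LEXO 1 of 9 was called, higher, against 6.10% of 13301 genes in either direction and 3.17% higher. The members' median log2 fold change was -0.12 (Trad-KAPA) and -0.17 (3’-LEXO), beside 0.016 and 0.013 for all genes tested. The test was edgeR's quasi-likelihood test with Benjamini-Hochberg adjustment over all genes tested in a kit. In bulk liver, fewer cells of a type and less RNA per cell cannot be told apart.

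**Figure D1:**
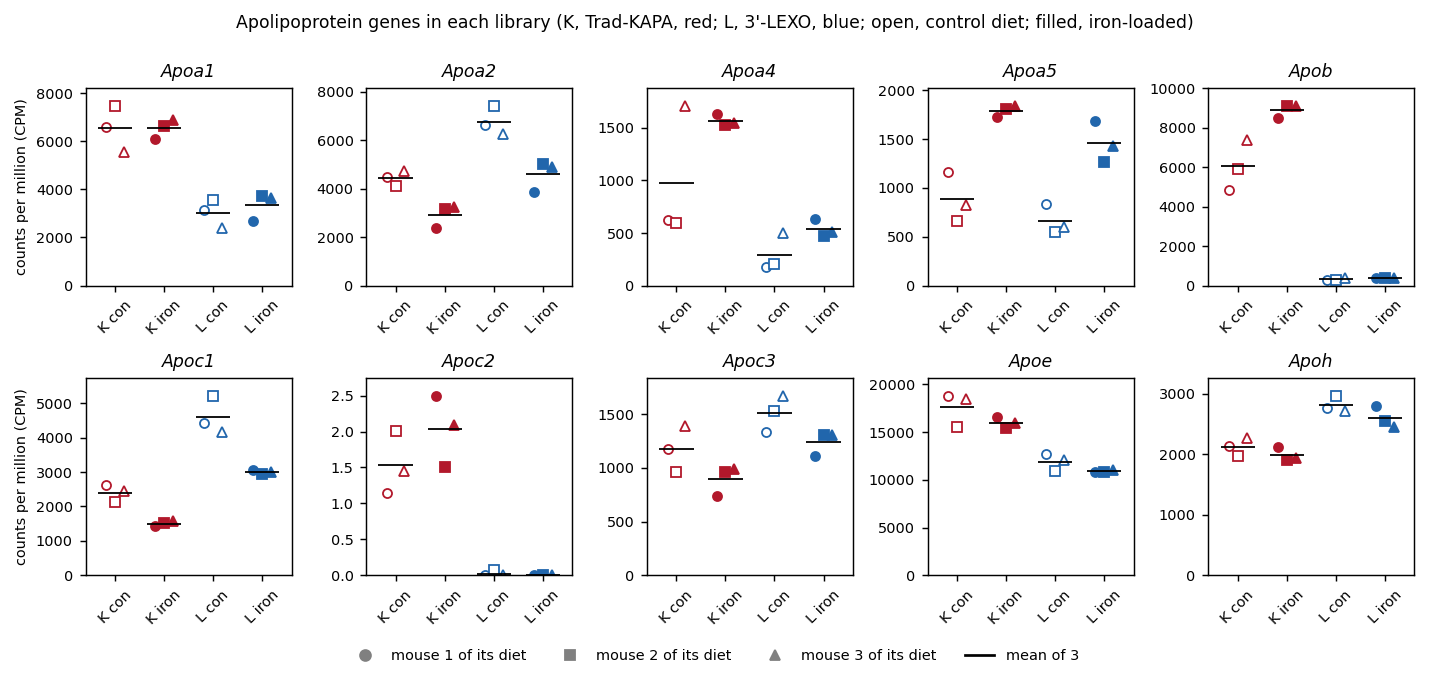
Scaled counts (CPM, linear axes from 0) of each apolipoprotein gene in the 12 libraries, with Trad-KAPA in red and 3’-LEXO in blue, control mice as open and iron-loaded mice as filled symbols, and the mean of 3 mice as a line. The Apoa5 symbols of the iron-loaded mice lie above all control symbols in both kits, those of Apoa2 and Apoc1 lie below them, and in Apoa4 control mouse 3 lies with the iron-loaded mice.

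Among regulators of lipolysis, Apoa5 lies on chromosome 9 (46268633 to 46271919, plus strand, GRCm38), with 2522 bp of merged exons. In Trad-KAPA it was at 1167, 663 and 826 CPM in control mice 1, 2 and 3 and at 1729, 1808 and 1840 CPM in iron-loaded mice 1, 2 and 3. In 3’-LEXO it was at 840, 547 and 604 CPM in the control mice and at 1682, 1265 and 1428 CPM in the iron-loaded mice. The lowest iron-loaded mouse was above the highest control mouse in both kits, and control mouse 1 was the highest of the controls in each. The log2 fold change was 0.95 ± 0.20 (SE, adjusted p = 0.0184) in Trad-KAPA and 1.07 ± 0.21 (adjusted p = 0.0185) in 3’-LEXO. With 1 mouse left out the direction held, but the Trad-KAPA call was lost without control 3, iron-loaded 2 or iron-loaded 3 (adjusted p = 0.0655, 0.0516 and 0.0515). The 3’-LEXO call was lost without control 2, control 3 or iron-loaded 3 (adjusted p = 0.0662, 0.0849 and 0.0620). Gm47544 shares 524 bp with Apoa5 on the opposite strand and held 120 counts over the 12 libraries.

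Apoc3, whose protein inhibits lipoprotein lipase and remnant uptake, lies in the same cluster on the minus strand (46232933 to 46235636). In Trad-KAPA it was at 1171, 961 and 1386 CPM in control and 734, 963 and 986 CPM in iron-loaded mice, and the groups overlapped. The 3’-LEXO values were 1329, 1533 and 1671 CPM in control and 1112, 1303 and 1304 CPM in iron-loaded mice, and the groups did not overlap. Its log2 fold change of -0.46 ± 0.20 in Trad-KAPA (adjusted p = 0.141) and -0.34 ± 0.18 in 3’-LEXO (adjusted p = 0.271) did not pass the test. Apoa5 and Apoc3 act on the lipase in opposite ways, so their counts were also set against each other within each library, where scaling cancels. The Apoa5 count was 0.761 ± 0.210 (SD, n = 3) of the Apoc3 count in control and 2.03 ± 0.280 in iron-loaded Trad-KAPA libraries. In 3’-LEXO the ratio was 0.450 ± 0.157 in control and 1.19 ± 0.284 in iron-loaded libraries. In Trad-KAPA the control ratios ended at 0.997 and the iron-loaded ones began at 1.87, and in 3’-LEXO the corresponding limits were 0.632 and 0.971, so that the groups were apart in both kits. The ratios between members given here and further on were chosen after the values were seen and have no test.

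Apoc1, which restrains the uptake of remnants, lies on chromosome 7 (19689481 to 19692660, minus strand) close to Apoe. In Trad-KAPA it was at 2627, 2118 and 2450 CPM in control mice and at 1428, 1509 and 1572 CPM in iron-loaded mice. In 3’-LEXO the values were 4436, 5219 and 4175 CPM in control and 3068, 2939 and 3007 CPM in iron-loaded mice. All iron-loaded mice were below all control mice in each kit, and the iron-loaded mice were the more alike, with an SD of 72.6 CPM against 259 CPM in Trad-KAPA. Its log2 fold change was -0.74 ± 0.14 in Trad-KAPA (adjusted p = 0.0138). This was the one member whose Trad-KAPA call was kept under each alternative that was run. In 3’-LEXO the change was -0.67 ± 0.17, with an adjusted p of 0.0513 in edgeR, of 0.000113 in DESeq2, of 0.0165 with no expression filter and of 0.0984 with the replicate number as a block. That block joins different mice of the diets. Without iron-loaded mouse 1 the adjusted p was 0.0352, and without any other mouse it lay between 0.105 and 0.147.

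Apoc2, the activator of lipoprotein lipase, had 19, 30 and 20 counts in the control and 35, 22 and 29 counts in the iron-loaded Trad-KAPA libraries, a mean of 1.78 ± 0.50 CPM over the 6 mice (SD). In 3’-LEXO 1 count was found in control mouse 2 and 0 in each of the other 5 mice, where a count of 0 allows up to 3 counts. The filter on low counts removed it from the 3’-LEXO diet test, and in Trad-KAPA its log2 fold change was 0.33 ± 0.31 (adjusted p = 0.479). Of its 813 bp of merged exons, 646 bp are shared with Gm44805, a protein-coding model on the same strand, and these include 483 of the last 500 bp at the 3′ end. Gm44805 held 0 counts over the 12 libraries, a value that can also stand for a gene left out of the counting. How reads in exons of both genes were counted is not given in the sources used here, so the level of Apoc2 is uncertain. The part of this overlap in the low counts was not tested.

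Of the structural proteins of HDL, Apoa2 fell in Trad-KAPA and Apoa1 did not pass the test. Apoa2 (chromosome 1, 171225054 to 171226379, plus strand) was at 4468, 4119 and 4724 CPM in control and at 2377, 3146 and 3257 CPM in iron-loaded Trad-KAPA libraries. In 3’-LEXO it was at 6606, 7404 and 6267 CPM in control and at 3874, 5015 and 4879 CPM in iron-loaded mice. The groups did not overlap in either kit, and iron-loaded mouse 1 was the lowest in both. The log2 fold change was -0.67 ± 0.18 (adjusted p = 0.0393) in Trad-KAPA and -0.61 ± 0.20 (adjusted p = 0.0933) in 3’-LEXO, where DESeq2 gave an adjusted p of 0.00832. The Trad-KAPA call was lost without any 1 of control mice 1, 2 and 3 and iron-loaded mice 2 and 3, with adjusted p = 0.0935, 0.0764, 0.108, 0.0787 and 0.0700, while the change stayed between -0.75 and -0.59.

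Apoa1 (chromosome 9, 46228580 to 46230466, plus strand), the main protein of HDL and the activator of the esterifying enzyme Lcat, was at 6604, 7463 and 5561 CPM in control and 6109, 6637 and 6865 CPM in iron-loaded Trad-KAPA libraries. In 3’-LEXO the values were 3132, 3559 and 2398 CPM in control and 2679, 3717 and 3630 CPM in iron-loaded mice, and the groups overlapped in both kits. Its log2 fold changes of -0.07 ± 0.16 (adjusted p = 0.803) and 0.10 ± 0.22 (adjusted p = 0.821) did not pass the test. Within a library the Apoa1 count was 1.49 ± 0.317 (SD, n = 3) times the Apoa2 count in control and 2.26 ± 0.266 times in iron-loaded Trad-KAPA libraries. The ratio in 3’-LEXO was 0.446 ± 0.0548 in control and 0.726 ± 0.0295 in iron-loaded libraries. The highest control ratio was below the lowest iron-loaded ratio in each kit, at 1.81 and 2.11 in Trad-KAPA and at 0.481 and 0.692 in 3’-LEXO. Of the 5 ratios that were formed, those to Apob did not separate the diets in both kits.

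Apoa4, which takes part in triglyceride transport, was set apart by 1 control mouse. In Trad-KAPA it was at 623, 600 and 1708 CPM in control and at 1632, 1523 and 1549 CPM in iron-loaded mice. The 3’-LEXO values were 172, 201 and 503 CPM in control and 633, 473 and 512 CPM in iron-loaded mice. Control mouse 3 was the highest of all 6 mice in Trad-KAPA and lay within the iron-loaded range in 3’-LEXO, so both of its libraries stood apart from those of the other controls. The log2 fold change was 0.59 ± 0.39 (adjusted p = 0.320) in Trad-KAPA and 0.80 ± 0.37 (adjusted p = 0.214) in 3’-LEXO. Without control mouse 3 it was 1.32 ± 0.12 (adjusted p = 0.0104) and 1.49 ± 0.20 (adjusted p = 0.0155). Without control mouse 1 or 2 the Trad-KAPA value was 0.33 or 0.32 and the 3’-LEXO value 0.52 or 0.57, with no call. Exons on the opposite strand share 634 bp (Gm47528) and 632 bp (Gm10680) with Apoa4, and use of strand in the counting is not given in the sources used here. The Gm10680 overlap includes 293 of the last 500 bp of Apoa4 at the 3′ end. These models held 68 and 532 counts over the 12 libraries, against 109617 counts of Apoa4 in the Trad-KAPA libraries.

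Apob, the structural protein of VLDL and the ligand for the low density lipoprotein receptor, spans 7977648 to 8016835 on chromosome 12. In Trad-KAPA it was at 4842, 5898 and 7404 CPM in control and at 8478, 9102 and 9081 CPM in iron-loaded mice. In 3’-LEXO it was at 274, 296 and 373 CPM in control and at 361, 409 and 369 CPM in iron-loaded mice. The groups did not overlap in Trad-KAPA and overlapped in 3’-LEXO, and control mouse 3 was the highest control in both. The log2 fold change of 0.48 ± 0.20 (adjusted p = 0.133) in Trad-KAPA and 0.21 ± 0.18 (adjusted p = 0.496) in 3’-LEXO did not pass the test. The Apoa5 count relative to Apob ran from 0.112 to 0.241 in control and from 0.199 to 0.204 in iron-loaded Trad-KAPA libraries, which overlapped, and from 1.62 to 3.06 and from 3.09 to 4.66 in 3’-LEXO, which did not. The Apoa4 count relative to Apob overlapped between the diets in both kits, with control libraries up to 0.231 and iron-loaded ones from 0.167 in Trad-KAPA, and up to 1.35 and from 1.16 in 3’-LEXO.

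Apoe and Apoh did not pass the test in either kit. Apoe was at 18830, 15510 and 18434 CPM in control and at 16620, 15483 and 15918 CPM in iron-loaded Trad-KAPA libraries, with a log2 fold change of -0.21 ± 0.17 (adjusted p = 0.409). In 3’-LEXO it was at 12724, 10896 and 12118 CPM in control and at 10863, 10840 and 11040 CPM in iron-loaded mice, with a log2 fold change of -0.19 ± 0.19 (adjusted p = 0.588). Apoh encodes beta-2-glycoprotein I, a plasma protein that binds anionic phospholipids. It was at 2129, 1970 and 2273 CPM in control and 2124, 1907 and 1930 CPM in iron-loaded Trad-KAPA libraries, and at 2759, 2965 and 2708 CPM and 2800, 2548 and 2450 CPM in 3’-LEXO. The groups of both genes overlapped in each kit, and the log2 fold change of Apoh was -0.17 in both (adjusted p = 0.396 and 0.549). Apoc1 lies next to Apoe, and its count was 0.136 ± 0.00330 (SD, n = 3) of that of Apoe in control and 0.0940 ± 0.00708 in iron-loaded Trad-KAPA libraries.

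Over the members, the diet groups did not overlap for 4 of 10 genes in Trad-KAPA (Apoa5 and Apob higher, Apoa2 and Apoc1 lower), against 41.2% of all genes tested. In 3’-LEXO they did not overlap for 4 of 9 (Apoa5 higher, Apoa2, Apoc1 and Apoc3 lower), against 31.3%. The kits used the same mice, so that these are not independent observations. Whether the diet effect differed between the kits was tested on all 12 libraries, and edgeR called 0% of 14384 genes and no member. At an unadjusted p below 0.05 it found 402 genes and 0 of the 10 members, and DESeq2 called 0 genes, with 390 at that unadjusted limit. The difference in log2 fold change, 3’-LEXO minus Trad-KAPA, ran from -0.27 ± 0.28 for Apob to 0.21 ± 0.61 for Apoa4 among the 9 members other than Apoc2. Each mouse gave a library in both kits, and with the mouse as a replicate block edgeR called 12 of 14882 genes and no member, with 1061 genes and 1 member at an unadjusted p below 0.05. That member was Apob, at -0.28 ± 0.12 (unadjusted p = 0.0307, adjusted p = 0.635), and the other members except Apoc2 ran from -0.0036 ± 0.12 for Apoh to 0.20 ± 0.12 for Apoa4. The log2 ratio of Apob, 3’-LEXO over Trad-KAPA, was -4.14, -4.32 and -4.31 in the control mice and -4.55, -4.48 and -4.62 in the iron-loaded mice. These values are given for Apob because of its unadjusted p and are no further test.

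**Figure D2:**
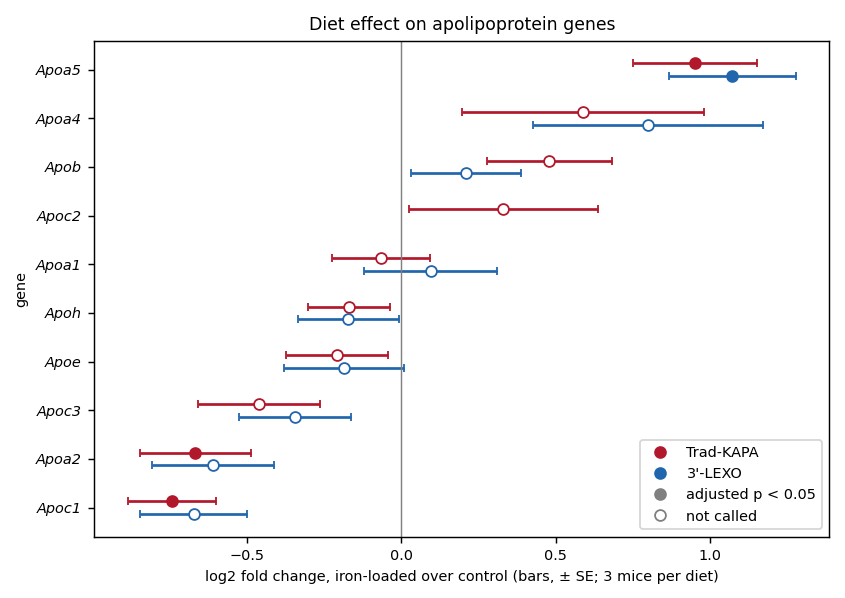
Log2 fold change of each apolipoprotein gene, iron-loaded over control, with its SE as a bar, from 3 mice per diet in each kit; filled symbols have an adjusted p below 0.05. Apoa5 is filled in both kits at 0.95 and 1.07, Apoa2 and Apoc1 only in Trad-KAPA at -0.67 and -0.74, and Apoc2 has no 3’-LEXO value.

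Apoa1, Apoc3, Apoa4 and Apoa5 form a cluster on chromosome 9, and Apoc2, Apoc1 and Apoe one on chromosome 7, so the genes beside them were read from the same fits. Zpr1, which encodes a zinc finger protein and begins 1145 bp from the end of Apoa5, rose from 31.4 to 92.2 CPM on average in Trad-KAPA and from 34.2 to 87.5 CPM in 3’-LEXO. Its log2 fold change was 1.48 ± 0.10 (adjusted p = 0.000505) in Trad-KAPA and 1.29 ± 0.14 (adjusted p = 0.00173) in 3’-LEXO, larger than that of any member. Bud13, the next gene, was at 0.32 ± 0.21 (adjusted p = 0.305) and 0.38 ± 0.26 (adjusted p = 0.396). Sik3, on the Apoa1 side, was at 0.07 ± 0.11 (adjusted p = 0.710) and -0.07 ± 0.13 (adjusted p = 0.768). Of the 7 chromosome 9 genes in this row, only Apoa5 and Zpr1 were called, in both kits. On chromosome 7, Apoc1 was called in Trad-KAPA, while Apoc4, between Apoc2 and Apoc1, had log2 fold changes of -0.13 ± 0.12 (adjusted p = 0.465) and -0.12 ± 0.15 (adjusted p = 0.650). Tomm40, beyond Apoe, was at 0.46 ± 0.19 (adjusted p = 0.127) and 0.94 ± 0.29 (adjusted p = 0.0800), and Clptm1 and Nectin2 were not called.

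**Figure D3:**
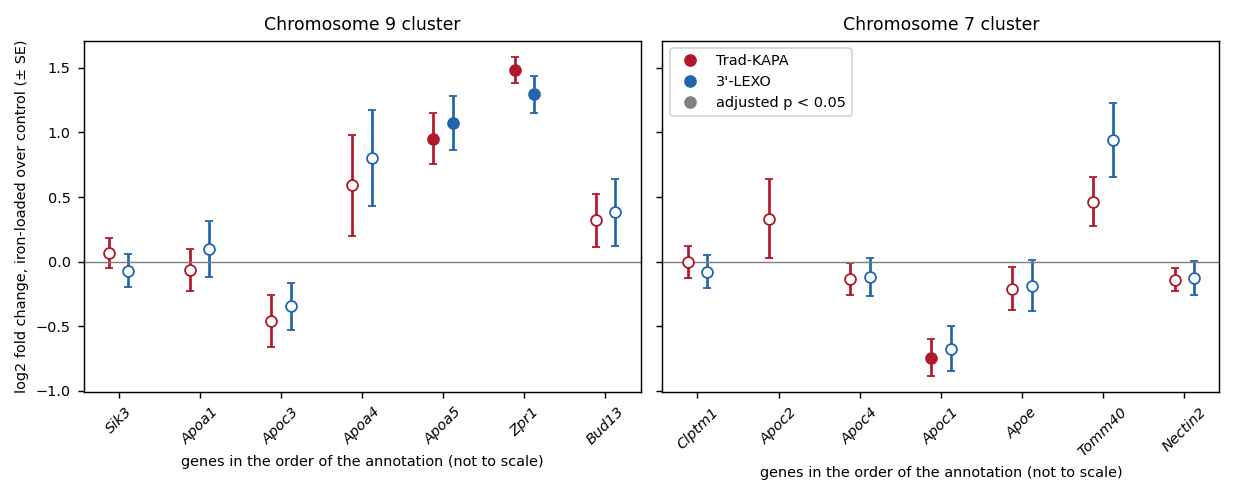
Log2 fold change, iron-loaded over control, with its SE, of the genes of the chromosome 9 and chromosome 7 clusters in the order of the annotation, in Trad-KAPA (red) and 3’-LEXO (blue); filled symbols have an adjusted p below 0.05. Apoa5 and Zpr1 stand at 0.95 and 1.48 in Trad-KAPA while Bud13 is at 0.32, and Apoc1 at -0.74 lies between Apoc4 at -0.13 and Apoe at -0.21.

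The kit comparison asked how the library method changes the share of reads a gene receives. All 10 members differed between the kits, 4 higher and 6 lower in 3’-LEXO, against 38.8% of 14384 genes called higher and 37.6% called lower. Apoc1, Apoa2, Apoc3 and Apoh took more of the 3’-LEXO reads, with a CPM ratio of 3’-LEXO over Trad-KAPA within a mouse of 1.98 ± 0.293, 1.55 ± 0.159, 1.35 ± 0.176 and 1.32 ± 0.104 (SD, n = 6). Each of these ratios was above 1 in 6 of 6 mice. Apoa5 was at 0.788 ± 0.101, Apoe at 0.680 ± 0.0215, Apoa1 at 0.485 ± 0.0505 and Apoa4 at 0.322 ± 0.0386, below 1 in 6 of 6 mice. Apob had the lowest ratio among these 9 genes, 0.0475 ± 0.00594. The adjusted p was 0.0445 for Apoa5, 0.0117 for Apoc3 and below these for the other members. The Apoa5 call was lost without control mouse 3, iron-loaded mouse 2 or iron-loaded mouse 3 (adjusted p = 0.0885, 0.101 and 0.108), and that of Apoc3 without control mouse 2 (adjusted p = 0.0551). These fits did not pair the libraries of a mouse. With the mouse as a block, edgeR gave an adjusted p of 1.84e-05 for Apoa5 and of 4.49e-06 for Apoc3. Apoc2 had 155 counts in Trad-KAPA and 1 in 3’-LEXO, a ratio of 136 after scaling to the library totals with an exact 95% interval from 24.0 to 5387 that covers counting error only. The interval leaves out the exons shared with Gm44805, which include 483 of the last 500 bp. Their part in the Apoc2 kit difference was not tested.

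The ratio was lower for the longer genes. Merged exons sum to 13934 bp in Apob, 2522 bp in Apoa5, 2138 bp in Apoe, 1815 bp in Apoa4, 1594 bp in Apoh, 1236 bp in Apoa1, 1014 bp in Apoc3, 744 bp in Apoc1 and 537 bp in Apoa2. Across the 9 genes other than Apoc2 Spearman's rho between length and ratio was -0.783, and -0.690 across the 8 genes without Apob. The points share their libraries and are genes rather than replicates, so no p is given. Apoa1 and Apoa4 had lower ratios than Apoe and Apoa5, whose merged exons are longer, in the means over 6 mice. By longest transcript Apoe is shorter than Apoa4, at 1408 against 1815 bp, and rho was not computed with that length. Apoa4 also shares 293 of its last 500 bp with Gm10680 on the opposite strand. The part of this overlap in the Apoa4 ratio was not tested.

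**Figure D4:**
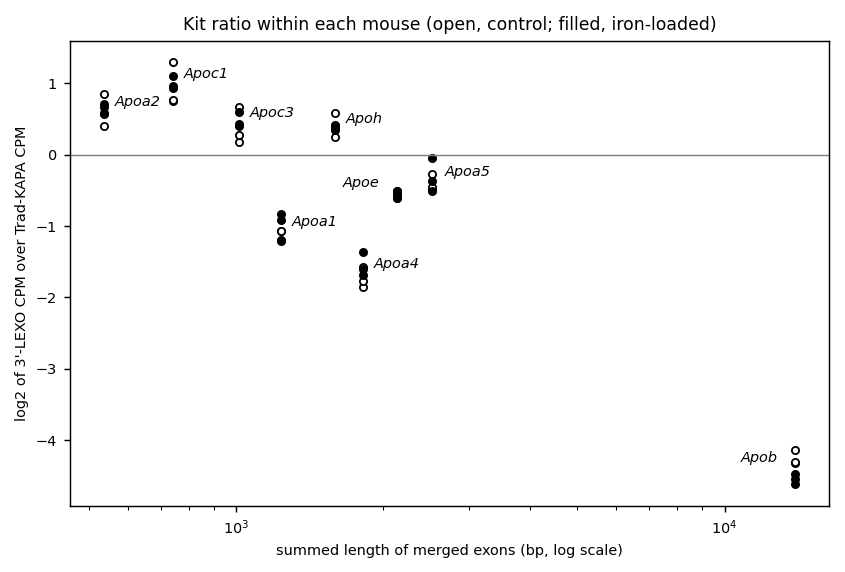
Log2 of the CPM ratio, 3’-LEXO over Trad-KAPA, within each of the 6 mice (open, control diet; filled, iron-loaded diet) against the summed length of merged exons in bp on a log scale, for the 9 apolipoprotein genes other than Apoc2. Apoc1, the second shortest gene at 744 bp, has a mean log2 ratio of 0.97 and Apob, the longest at 13934 bp, one of -4.40.

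Levels were compared between genes per kilobase in Trad-KAPA only. Apoe was the highest at 7857 ± 694 CPM per kb (SD, n = 6), followed by Apoa2 at 6856 ± 1679, Apoa1 at 5291 ± 526 and Apoc1 at 2622 ± 698 CPM per kb. Apoh followed at 1290 ± 89.8, Apoc3 at 1019 ± 219, Apoa4 at 701 ± 285, Apob at 536 ± 127 and Apoa5 at 531 ± 208 CPM per kb, and Apoc2 was last at 2.19 ± 0.615 CPM per kb. The Apoc2 value was divided by all 813 bp, of which 646 bp are shared with Gm44805, so its level and place are uncertain. Apoa1 exceeded Apoc1, Apoc1 exceeded Apoh, Apoh exceeded Apoc3 and Apoa5 exceeded Apoc2 in 6 of 6 mice each. Apoc3 exceeded Apoa4 in 5 of 6 mice, and the order of the remaining neighbours differed between mice. Apoe exceeded Apoa2 in 1 of 3 control mice and in 3 of 3 iron-loaded mice (7487 ± 268 against 5450 ± 892 CPM per kb, SD). Apoa2 exceeded Apoa1 in 3 of 3 control mice and in 2 of 3 iron-loaded mice. Both Apoa4 and Apoa5 exceeded Apob in 1 of 3 control mice and in 3 of 3 iron-loaded mice, at 864 ± 31.4 and 711 ± 22.6 against 638 ± 25.4 CPM per kb. Neighbours whose order was mixed within a diet did not differ there beyond their spread. Divided by the longest transcript instead, Apoe was at 11931 ± 1053 and Apoa2 at 7108 ± 1741 CPM per kb over the 6 mice, with Apoe above Apoa2 in 3 of 3 mice of each diet, and Apoa2 exceeded Apoa1 in 0 of 3 iron-loaded mice. By CPM in 3’-LEXO, Apoe was above Apoa2 in 6 of 6 mice. There Apoc1 was above Apoa1 in 4 of 6 mice and Apoa5 above Apoa4 in 6 of 6, so the order depended in part on the kit.

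The members together took 4.22% ± 0.274 (SD, n = 3) of the counts in control and 4.21% ± 0.0883 in iron-loaded Trad-KAPA libraries, and 3.19% ± 0.0956 in control and 2.81% ± 0.0863 in iron-loaded 3’-LEXO libraries. The 3’-LEXO diet groups did not overlap, with 3.08% as the lowest control and 2.86% as the highest iron-loaded share. Apoe alone made up 39.9% ± 2.82 (SD, n = 6) of the members' Trad-KAPA counts and 38.1% ± 2.44 of their 3’-LEXO counts.

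Genes that act with apolipoproteins were read in 5 lists from the same diet fits, in which Trad-KAPA called 17.1% and 3’-LEXO 6.10% of all genes tested. Of 11 genes of VLDL assembly and secretion, 3 passed the Trad-KAPA test (1 higher, 2 lower) and 1 that of 3’-LEXO (lower), with median log2 fold changes of 0.010 and -0.059. Sar1b, a GTPase of the vesicles that carry VLDL out of the endoplasmic reticulum, fell in both kits (log2 fold change -0.74 ± 0.12, adjusted p = 0.00792, and -0.85 ± 0.16, adjusted p = 0.0185). Cideb, a protein of VLDL lipidation, fell in Trad-KAPA (-0.49 ± 0.10, adjusted p = 0.0174). P4hb, the disulfide isomerase subunit that pairs with Mttp in the microsomal transfer protein, rose in Trad-KAPA (0.47 ± 0.13, adjusted p = 0.0387), and Mttp itself was at -0.14 ± 0.11 (adjusted p = 0.427). The Trad-KAPA count fell to 1 without control 2, iron-loaded 2 or iron-loaded 3, and the 3’-LEXO count to 0 without control 2, control 3 or iron-loaded 3.

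Of 12 genes of lipases, HDL remodelling and sterol export, 3 were called in Trad-KAPA (2 higher, 1 lower) and 2 in 3’-LEXO (1 higher, 1 lower), with medians of -0.057 and -0.062. Lpl, the lipase on which Apoa5, Apoc2 and Apoc3 act, rose from 36.4 ± 10.1 to 263 ± 26.2 CPM (SD, n = 3) in Trad-KAPA and from 69.6 ± 27.1 to 387 ± 64.2 CPM in 3’-LEXO. Its fold change was 6.88 (adjusted p = 0.000505) and 5.35 (adjusted p = 0.00173). Lipc, the hepatic lipase of HDL and remnants, fell, with log2 fold changes of -0.82 ± 0.10 (adjusted p = 0.00366) and -0.76 ± 0.13 (adjusted p = 0.0138). Without iron-loaded mouse 3 the 3’-LEXO count was 1.

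Lpl is also expressed by macrophages, and the summed level of 7 Kupffer cell and macrophage markers was 309 to 493 CPM in control and 561 to 609 CPM in iron-loaded Trad-KAPA libraries. In 3’-LEXO it was 833 to 1085 CPM in control and 1095 to 1340 CPM in iron-loaded libraries. None of the 7 markers was at 0, Marco and Vsig4 were called higher in Trad-KAPA and Marco in 3’-LEXO, and their part in the levels of Lpl or of Apoe, which macrophages also express, was not tested. Apoa1, Apoa4 and Apob are also intestinal genes, and of 5 enterocyte markers Sis and Alpi were not detected, Vil1 and Lct had at most 4 counts in any library, and Fabp2, also a liver transcript, was lower in iron-loaded mice in both kits.

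Of 11 lipoprotein receptors and their regulators, Trad-KAPA called 1 and 3’-LEXO called 0, with median log2 fold changes of 0.079 and -0.035. At an unadjusted p below 0.05 3’-LEXO held 4 of these genes, and DESeq2 called 0. Sdc1, a heparan sulfate proteoglycan that binds remnants, fell in Trad-KAPA (log2 fold change -0.63 ± 0.10, adjusted p = 0.00866), and its 3’-LEXO value was -0.54 ± 0.21 (adjusted p = 0.15). Sort1, which encodes the ApoB-binding receptor sortilin, was the second of this list by p, at 0.57 ± 0.19 in Trad-KAPA (adjusted p = 0.0771). Without iron-loaded mouse 1 the counts of this list were 5 and 1. Of 11 other apolipoproteins and lipoprotein-bound proteins, 10 were tested in each kit and 2 fell in both, the acute phase apolipoproteins Saa1 and Saa2. Their log2 fold changes were -3.48 ± 0.65 and -3.59 ± 0.62 in Trad-KAPA (adjusted p = 0.0123 and 0.00988) and -3.07 ± 0.61 and -3.22 ± 0.58 in 3’-LEXO (adjusted p = 0.0208 and 0.0155). Saa1 and Saa2 are near-identical copies, so the split of reads between them is uncertain, and the control mice varied widely, with 741 ± 505 CPM (SD, n = 3) of Saa1 in Trad-KAPA. Neither was called in 3’-LEXO without control mouse 1 or 2, where the count of the list was 0.

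Of 20 transcription factors known to act on apolipoprotein genes, 6 were called in Trad-KAPA (2 higher, 4 lower) and 2 in 3’-LEXO, both lower, with medians of -0.27 and -0.17. Nr0b2, the corepressor SHP of bile acid signalling, fell in both kits to 0.290 (adjusted p = 0.00363) and 0.305 (adjusted p = 0.00440) of the control level. Foxa2, a hepatocyte factor of fasting metabolism, also fell in both, with log2 fold changes of -0.68 ± 0.20 (adjusted p = 0.0479) and -0.88 ± 0.21 (adjusted p = 0.0408). Pparg and Rora rose in Trad-KAPA, and Mlxipl and Foxo1 fell. Hnf4a, a general activator of apolipoprotein genes in hepatocytes, was at 0.03 ± 0.13 (adjusted p = 0.883) in Trad-KAPA. The count of this list in Trad-KAPA ran from 2 without control mouse 1 to 12 without iron-loaded mouse 1, and was 3 without any other mouse. In 3’-LEXO it was 1 without control 1, iron-loaded 2 or iron-loaded 3.

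**Figure D5:**
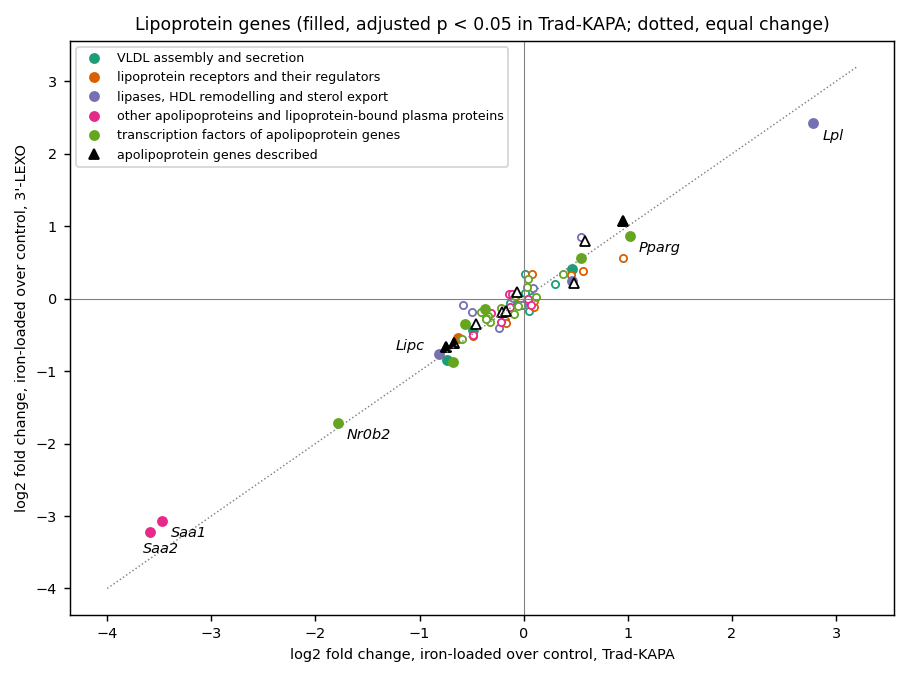
Log2 fold change, iron-loaded over control, in 3’-LEXO against Trad-KAPA for the genes of the 5 lists (circles) and the described apolipoprotein genes (triangles); filled symbols have an adjusted p below 0.05 in Trad-KAPA, and the dotted line marks equal change. Lpl is farthest to the upper right at 2.78 and 2.42, Saa1 and Saa2 are farthest to the lower left, and Apoa5 is the uppermost triangle.

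The genes whose pattern over the 6 mice was most like that of Apoa5 were ranked by the smaller of Pearson's r in Trad-KAPA and in 3’-LEXO, among 6718 genes. These were Washc2 (r = 0.984), Hamp (0.972), Lcn2 (0.969), Rab23 (0.968) and Impact (0.964). For Apob they were Pnpla8 (0.929), Dsc2 (0.920), Togaram1 (0.918), B930025P03Rik (0.896) and Apoa4 (0.894), the one member among the genes named for Apoa5 and Apob. No such list was made for the other members. These r describe 6 mice in each kit, in 2 diet groups that share their mice between the kits, and carry no p.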

How the data were processed

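Liver RNA of 6 mice was measured in 12 libraries, and the samples were grouped by kit and diet from their labels. The values are raw read counts per gene as deposited: the authors mapped single-end reads to GRCm38 with STAR 2.5.3a and counted reads that mapped uniquely to exons, without removing duplicates. The counting program, annotation release and use of strand are not given in the sources used here. Of the 27022 identifiers, 26940 matched GENCODE M21 (GRCm38), from which symbols, positions and merged exon lengths were taken.

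The diet was tested within each kit, and the kit and the difference of the diet effects over all libraries, with edgeR 4.0.16 (R 4.3.3; TMM, filterByExpr, quasi-likelihood F test) fitted on all genes, with Benjamini-Hochberg adjustment at 0.05. The SE is the log2 fold change divided by the square root of F, and CPM are counts scaled to a library total of 1000000. Duplicate reads are not independent molecules, so intervals and the floor of 3 counts cover counting error only. On simulated counts with 200 changed genes, 73.5% were recovered for Trad-KAPA (13162 genes) and 73% for 3’-LEXO (13337 genes), and 8.1% and 5.8% of the calls were wrong. The simulation gave all genes the same spread and all changed genes the same size of change, and it changed no low-count gene. These shares check that the fit runs and do not carry over to the diet tests of the real counts. Libraries of a group differed by more than counting noise, and p-values measure the spread between mice that shared a cage within each diet. DESeq2 1.42.0, other scalings and filters, the longest transcript as length, a replicate block and leaving out each mouse were alternatives.

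A mouse carries 1 number in both kits, and deviations from the group means of same-numbered libraries correlated at r = 0.435 to 0.765. Between diets the numbers name different mice (r = -0.163 to 0.0964). The members and lists were chosen with earlier results of these data known. Named were all members, for each list the genes called in both kits in one direction or, with fewer than 2, those with the smallest p in Trad-KAPA up to 2, the 5 iron-responsive genes, and genes beside the clusters; Cideb, P4hb, Mttp, Pparg, Rora, Mlxipl, Foxo1 and Hnf4a were added after their values were seen. Genes most like Apoa5 and Apob were ranked over those with at least 10 CPM.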

Additional observations from a re-analysis of the deposited data

How the results depend on the processing

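In Trad-KAPA, 3 members were called for the diet in each alternative that kept all mice, including DESeq2 and the fit with the replicate block, and between 1 and 3 with 1 mouse left out. The count was 1 (Apoc1) without iron-loaded mouse 2 or 3. In 3’-LEXO, 1 member was called, 3 with DESeq2 (Apoa2, Apoc1 and Apoa5), 4 with no expression filter (Apoa4 in addition) and 0 to 2 with 1 mouse left out. The count was 0 without control 2 or iron-loaded 3 and 2 without iron-loaded 1 (Apoc1 and Apoa5). Without control 3 the single call was Apoa4 rather than Apoa5. The cause was not tested, and fits without a mouse rest on fewer samples. Within a kit the block was the replicate number, which joins different mice of the diets. That fit therefore cannot strengthen or weaken a diet call. It gave counts of 3 in Trad-KAPA and 1 in 3’-LEXO. Over both kits the block was the mouse, with counts of 0 for the difference between the kits' diet effects and 10 for the kit. No call of a member changed, but over all genes 12 in place of 0 were called for a diet effect unequal between kits. The block on replicate number moved the called genes of the lists to 3 receptors in Trad-KAPA and to 0 other apolipoproteins and 1 transcription factor in 3’-LEXO. The diet difference of Apoa1 changed sign with 1 mouse left out, from -0.14 to 0.026 in Trad-KAPA (0.012 without iron-loaded 1) and from -0.029 to 0.24 in 3’-LEXO (-0.011 without iron-loaded 2). With Mup, Alb and Serpina genes left out of the total, the summed share was 4.90% in control and 4.86% in iron-loaded Trad-KAPA libraries and 3.40% and 2.98% in 3’-LEXO. Without mitochondrial genes it was 4.37% in iron-loaded Trad-KAPA libraries and 3.37% and 2.96% in 3’-LEXO. Over all genes, the 811 calls in 3’-LEXO were 1321 with DESeq2, 2040 with no expression filter, 424 with the replicate block and 199 to 871 with 1 mouse left out, and the 2255 in Trad-KAPA 841 to 2803 with 1 mouse left out. With library totals only, the split of all Trad-KAPA calls was 1339 higher and 838 lower, beside 1154 and 1101. With the longest transcript as length, 5 of the 10 levels per kb moved by more than their SD. Of 100 values for the kit, 96 kept their direction and call, and 4 lost the call with a mouse left out. The depth behind Apoc2 was at most 35 counts per library.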
